A study of Mus musculus with 6 samples.

Results

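Kruppel-like factors are transcription factors with a conserved tail of zinc fingers, and 10 of their genes were followed here: Klf3, Klf4, Klf6, Klf7, Klf9, Klf10, Klf12, Klf13, Klf15 and Klf16. They were picked by name among the 23235 genes of each of the authors' 2 deposited tables, and all 10 had a test in both. The other 7 Klf genes of the tables are Klf1, Klf2, Klf5, Klf8, Klf11, Klf14 and Klf17. RNA was sequenced from 6 libraries of mouse cortical and hippocampal neurons, started at embryonic day 15. The cultures were kept 17 days in a serum-free neuronal medium with 2% B27 supplement. They were exposed to 1 uM AraC (a blocker of DNA synthesis) on day 5 and to lentivirus on day 12. The 3 groups of 2 libraries are a control, an HDAC2 knockdown (short hairpin RNAs against the histone deacetylase HDAC2) and an Sp3 knockdown (short hairpin RNAs against the zinc finger factor Sp3). The labels name neither the genotype of the mice nor the hairpin of the control, and do not tell if each library is a culture of its own, so p-values may measure technical spread alone. The study asked whether HDAC2 and Sp3 act together on a set of genes.

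The proteins bind GC boxes and CACCC boxes in promoters, the same kind of site that Sp factors bind. By the cofactors they recruit they fall into subgroups. Klf3, Klf8 and Klf12 are repressors that bind CtBP. Klf9, Klf10, Klf11, Klf13, Klf14 and Klf16 bind the Sin3 corepressor, which carries histone deacetylases, HDAC2 among them. Klf4, Klf6 and Klf7 act mostly as activators and Klf15 stands apart. In neurons Klf6 and Klf7 are known to favour axon growth and Klf4 and Klf9 to restrain it. Klf9 and Klf15 are known glucocorticoid-responsive genes, Klf10 was described as an early gene of TGF-beta signalling, and Klf13 is close to Klf9 in sequence and function.

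The family is defined by its 3 zinc fingers. The coding sequence of the linker between the first and the second finger is shown as a short stretch of that region, beside that of Sp3. The 3 pairs of members most alike over the fingers are given, with Klf15 and Sp3. Capitals mark the 8 of 21 bases that are equal in all 10 members and Sp3.
Klf6 linker: aCaGGaGAaaagCCtTacaga
Klf7 linker: aCaGGtGAgaagCCtTacaag
Klf3 linker: aCaGGaGAaaagCCgTacaaa
Klf12 linker: aCaGGaGAgaagCCcTacaaa
Klf13 linker: aCaGGtGAgaggCCtTtcgcc
Klf16 linker: aCaGGtGAgcggCCcTttgcc
Klf15 linker: aCaGGcGAgaagCCcTttgcc
Sp3 linker: tCgGGgGAgcgcCCtTttatt
The sequences were taken from GENCODE M21 transcripts, on GRCm38, and each span runs from the first to the last base of the linker. They lie for Klf6 at chr13:5865341-5866655 (+), Klf7 at chr1:64042421-64078710 (-), Klf3 at chr5:64827267-64828993 (+) and Klf12 at chr14:99875298-99900085 (-). The others lie for Klf13 at chr7:63891781-63937970 (-), Klf16 at chr10:80569206-80576750 (-), Klf15 at chr6:90467477-90467497 (+) and Sp3 at chr2:72940616-72940636 (-). In 9 of 10 members an exon junction follows base 4 of the linker, so these spans hold an intron, whereas in Klf15, as in Sp3, the linker lies in 1 exon. Over the 243 coding bases of the fingers, 45 pairs of members were 57.2% to 81.1% identical (median 63.8%), and the members were 51.9% to 60.1% identical to Sp3. Klf6 and Klf7 led with 81.1%, followed by Klf3 and Klf12 with 78.2% and Klf13 and Klf16 with 75.3%. The longest exact stretch that transcripts of 2 members had in common was 34 bases (Klf12 and Klf13), and it was 26 bases for Klf6 and Klf7. The read length is not given in the sources used here, so how reads from such stretches were assigned is unknown.

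Promoter windows of 300 bases, 250 before and 50 after the start, were found in RefSeq (GRCm38.p6) for 8 of the 10 members, the others being Klf10 and Klf16. Shown are the windows of the members with an entry that the deposited test called in either knockdown, since the family and Sp3 both bind GC boxes. Capitals mark each GC box, GGGCGG or CCGCCC on the other strand.
Klf3 promoter: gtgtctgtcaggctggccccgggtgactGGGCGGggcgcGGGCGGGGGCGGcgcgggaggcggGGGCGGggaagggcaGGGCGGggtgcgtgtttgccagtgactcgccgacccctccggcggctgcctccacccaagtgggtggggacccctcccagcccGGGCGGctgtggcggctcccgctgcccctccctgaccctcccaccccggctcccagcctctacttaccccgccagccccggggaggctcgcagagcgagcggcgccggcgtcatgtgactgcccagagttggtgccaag
Klf6 promoter: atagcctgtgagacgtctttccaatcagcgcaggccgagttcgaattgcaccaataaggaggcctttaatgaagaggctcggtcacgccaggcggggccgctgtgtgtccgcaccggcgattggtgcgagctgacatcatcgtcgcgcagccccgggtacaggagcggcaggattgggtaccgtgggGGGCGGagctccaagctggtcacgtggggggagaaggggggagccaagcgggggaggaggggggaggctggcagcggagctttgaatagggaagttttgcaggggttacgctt
Klf12 promoter: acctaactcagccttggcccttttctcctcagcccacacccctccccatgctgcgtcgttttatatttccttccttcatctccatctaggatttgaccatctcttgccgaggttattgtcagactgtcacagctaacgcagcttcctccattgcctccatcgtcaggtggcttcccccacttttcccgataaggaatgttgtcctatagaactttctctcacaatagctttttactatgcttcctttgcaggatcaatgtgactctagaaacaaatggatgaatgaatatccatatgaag
Klf13 promoter: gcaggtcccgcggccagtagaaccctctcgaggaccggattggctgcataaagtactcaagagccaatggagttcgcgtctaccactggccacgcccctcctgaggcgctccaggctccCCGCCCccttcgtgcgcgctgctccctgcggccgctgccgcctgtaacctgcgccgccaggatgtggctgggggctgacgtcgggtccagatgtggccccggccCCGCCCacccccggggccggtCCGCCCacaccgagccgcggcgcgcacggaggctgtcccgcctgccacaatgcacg
The windows lie for Klf3 at chr5:64803271-64803570 (+), Klf6 at chr13:5861239-5861538 (+), Klf12 at chr14:100149747-100150046 (-) and Klf13 at chr7:63938866-63939165 (-). The window of Klf3 held 6 GC boxes, some of them directly adjacent, that of Klf13 held 3 and that of Klf6 held 1. The Klf12 window held 0, and at 45.7% it was the least GC-rich of the 8. Among the 8 windows 6 held a GC box, against 35.7% of all 32851 RefSeq windows and 62.2% of the 12341 windows of genes that reached 1 FPKM. The CACCC box (CACCC, or GGGTG on the other strand) was also in 6 of 8, against 57.5% and 63.7%. A match describes letters in a window and does not show that a factor binds there.

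Levels are given in FPKM (fragments per kilobase of transcript, scaled to the number of mapped fragments), which allows genes to be compared per length. The tables hold 1 FPKM per group and no value per library, so no spread within a group can be given and whether neighbours in an order of levels differ cannot be judged. In control cultures Klf13 stood highest at 27.4 FPKM by the authors' deposited table, followed by Klf10 and Klf9, both at 20.9, and Klf6 at 17.7. These 4 genes made up 68.7% of the summed FPKM of the 10 members. The growth-linked activator Klf7 followed at 11.97 FPKM by the authors' deposited table, then Klf3 at 7.46, Klf16 at 6.76, Klf12 at 6.59 and Klf15 at 5.81. Klf4, best known as a reprogramming factor, was the lowest member at 1.02 FPKM by the authors' deposited table, a level above only 5.37% of the 13831 genes tested in either comparison, whereas Klf13 stood above 79.2% of them. The called members lie, in mm9 coordinates of the tables, at chr5:65194761-65221368 (Klf3), chr13:5860734-5869639 (Klf6), chr15:38224167-38230462 (Klf10), chr14:100269861-100549015 (Klf12), chr7:71031236-71083801 (Klf13) and chr10:80029865-80040041 (Klf16). Klf13 stayed first, Klf15 ninth and Klf4 last in all 3 groups. The summed FPKM of the 10 members was 126 in control, 175 in HDAC2 knockdown and 136 in Sp3 knockdown. The median tested gene stood at 9.71, 12.4 and 8.81 FPKM in the same groups.

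**Figure D1:**
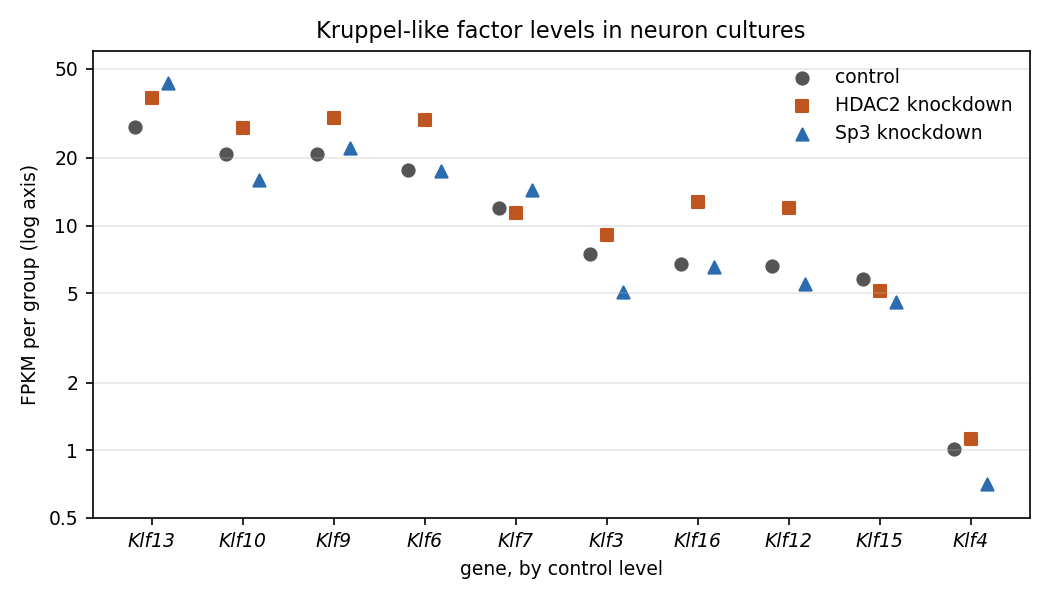
FPKM of the 10 Kruppel-like factor genes (log axis), ordered by control level, with 1 point per group as deposited and no error bars because no value per library was used. Klf13, Klf10, Klf9 and Klf6 lie at 16.0 FPKM or above in every group, while Klf4 lies between 0.706 and 1.12 FPKM.

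Facts of the whole data set bear on every fold change below. Among genes reaching 1 FPKM in either group, the log2 fold change had a median of 0.32 in HDAC2 knockdown and -0.13 in Sp3 knockdown, so each member's value is also given relative to that median gene (centred). Whether scaling or most genes moved that median was not tested. The targeted gene Hdac2 went from 49.4 to 12.3 FPKM in HDAC2 knockdown, and Sp3 from 15.5 to 5.82 FPKM in Sp3 knockdown, by the authors' deposited table. By the authors' deposited table Sp3 also stood at 26.7 FPKM in HDAC2 knockdown, with a q of 0 as listed. Glial markers moved with the knockdowns. Over all tested genes, a deposited q under 0.05 called 24.6% higher and 3.6% lower in HDAC2 knockdown. In Sp3 knockdown these shares were 13.2% and 26.1%. Centred, at an adjusted p under 0.05, they were 10.2% and 7.58%, and 20.2% and 17.6%. Of 12 astrocyte markers, 10 were tested in HDAC2 knockdown, with 6 called higher and 0 lower, and 11 in Sp3 knockdown, with 0 higher and 6 lower, by the authors' deposited table. Centred counts of astrocyte markers were 5 higher and 0 lower in HDAC2 knockdown, and 2 higher and 6 lower in Sp3 knockdown. The summed FPKM of the 12 was 761 in control, 2220 in HDAC2 knockdown and 668 in Sp3 knockdown. Abundant genes weigh most in such sums: Slc1a3, not called in either knockdown, held 173, 721 and 212 FPKM of them. Of 14 oligodendrocyte lineage markers, 11 of 14 tested were called higher in HDAC2 knockdown and 8 of 10 tested lower in Sp3 knockdown, and their summed FPKM was 228, 465 and 132. Centred, 10 of them were higher in HDAC2 knockdown and 8 lower in Sp3 knockdown, with 0 the other way. The 11 neuronal markers found summed to 974, 1029 and 1272 FPKM, with 0 higher and 1 lower, then 5 higher and 2 lower, called by the authors' deposited table. Their centred counts were 0 higher and 2 lower, then 5 higher and 0 lower. All 6 cycling-cell markers were called lower in Sp3 knockdown and 0 of 6 were called in HDAC2 knockdown by the deposited Cuffdiff test. Their sums were 95.1, 99.4 and 49.2 FPKM. Centred, all 6 stayed lower in Sp3 knockdown. In HDAC2 knockdown 1 was then lower, Cenpf (-0.72, adjusted p = 0.0168 from the authors' Cuffdiff statistic). The 9 microglia markers summed to 6.55, 5.84 and 4.56 FPKM with Tmem119 listed at 0 in all groups, and the 8 endothelial markers to 1.47, 2.59 and 1.62 FPKM with Tie1 listed at 0. The 7 fibroblast and pericyte markers summed to 28.9, 42.5 and 52.1 FPKM, of which Dcn alone held 26.6, 38.4 and 49.9. Of 3 tested, 2 were called higher and 0 lower in HDAC2 knockdown by the deposited Cuffdiff test. In Sp3 knockdown 1 was higher and 1 lower. Centred counts were 1 and 0, and 1 and 1. Many Klf genes are expressed in glia as well as neurons. The part of these markers in the Klf values was not tested, and in whole cultures fewer cells of a type and less RNA per cell cannot be told apart.

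In HDAC2 knockdown 3 of the 10 members rose, the CtBP-binding repressor Klf12, the Sin3-binding repressor Klf16 and the activator Klf6, and 0 fell. Called means a q under 0.05 by the authors' deposited table, where 28.2% of the 13569 tested genes were called, 24.6% higher and 3.6% lower. A count of 3 among 10 is near that background. Errors are standard errors (SE) implied by the deposited test statistic. The median log2 fold change of the 10 members was 0.41, against 0.31 over all genes tested, and 8 of 10 were above 0 before centring and 6 of 10 after it, beside 10201 and 6685 of 13488 genes.

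Klf16 measured 6.76 FPKM in control and 12.8 FPKM in HDAC2 knockdown by the authors' deposited table. This was a rise of 1.89-fold, or 0.92 ± 0.25 on the log2 scale, with q = 0.00118 by the deposited Cuffdiff test. Klf12 measured 6.59 and 12.002 FPKM by the authors' deposited table, 1.82-fold higher in knockdown, with a log2 fold change of 0.86 ± 0.24 and q = 0.00196 by the deposited Cuffdiff test. Both were among the lower members in control, and both passed Klf3 in HDAC2 knockdown. Klf6, which is induced by injury and favours axon growth, measured 17.7 and 29.5 FPKM by the authors' deposited table, with 0.74 ± 0.26 and q = 0.0192 by the deposited Cuffdiff test. None of the 3 calls held relative to the median gene. Centred log2 values were 0.60 for Klf16 (adjusted p = 0.0692), 0.55 for Klf12 (adjusted p = 0.0993) and 0.42 for Klf6 (adjusted p = 0.298), with a Benjamini-Hochberg (BH) adjustment over all genes of the authors' Cuffdiff table. So 0 of 10 members were called after centring, against 17.8% of all genes (10.2% higher and 7.58% lower) and 17.9%, with 0 members, under upper-quartile scaling. At an unadjusted p, 2 of 10 (Klf12 and Klf16) were under 0.05, against 28.4% of all genes, from the authors' Cuffdiff statistic.

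The other 7 members missed the threshold. Klf9, a hormone-responsive repressor, measured 20.9 and 30.1 FPKM by the authors' deposited table, with a log2 fold change of 0.53 ± 0.25 and q = 0.0859 by the deposited Cuffdiff test. Its 95% interval ran from 0.044 to 1.01 as deposited and from -0.27 to 0.69 after centring. Klf13 measured 27.4 and 37.0 FPKM by the authors' deposited table (log2 0.43 ± 0.33), and Klf10 20.9 and 27.2 FPKM (log2 0.38 ± 0.24). The error of Klf13 was the largest of the 10 after that of Klf4. Klf3 stood at 7.46 and 9.07 FPKM (log2 0.28 ± 0.25) and Klf4 at 1.02 and 1.12 FPKM (log2 0.14 ± 0.41) by the authors' deposited table. Both lie below the median gene, at centred values of -0.033 and -0.17. Klf7 stood at 11.97 and 11.4 FPKM (log2 -0.069 ± 0.27) and Klf15, a glucocorticoid-responsive gene with metabolic targets, at 5.81 and 5.09 FPKM (log2 -0.19 ± 0.29) by the authors' deposited table. These were the members with lower FPKM in HDAC2 knockdown than in control, and their intervals reached from -0.60 to 0.47 for Klf7 and from -0.76 to 0.37 for Klf15.

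**Figure D2:**
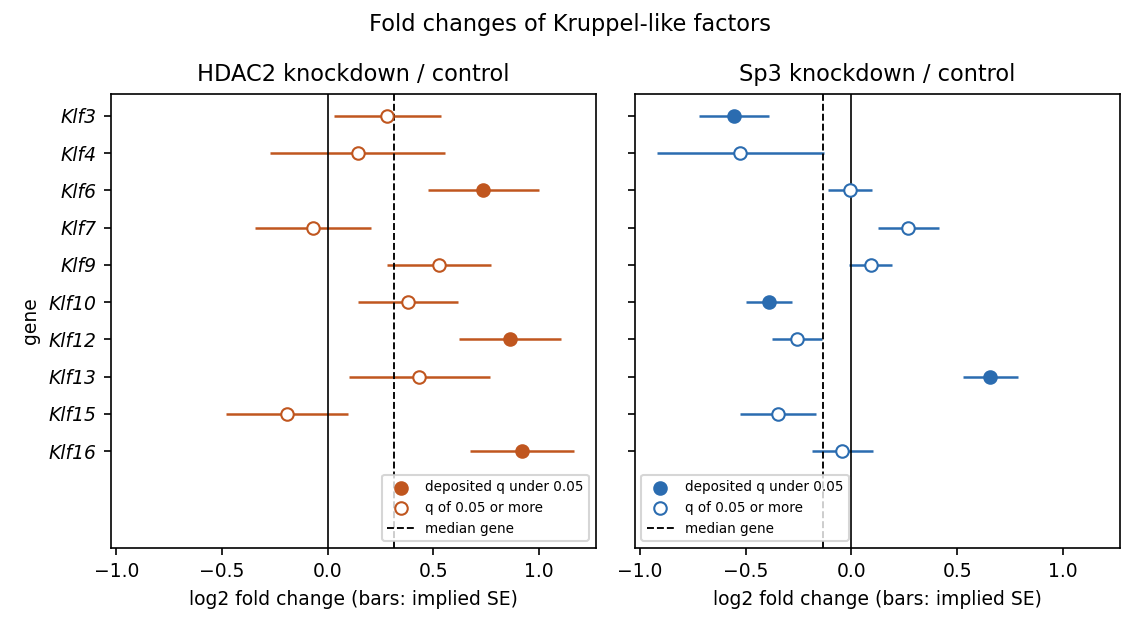
Log2 fold change of each member in HDAC2 knockdown (left) and Sp3 knockdown (right) against control, with bars for the implied SE, filled points for a deposited q under 0.05 and a dashed line at the median gene. Filled points are Klf6, Klf12 and Klf16 on the left and Klf3, Klf10 and Klf13 on the right, and bars are shorter on the right for each member.

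In Sp3 knockdown Klf13, the most abundant member, rose, and the repressors Klf3 and Klf10 fell. These 3 of 10 calls stand beside 39.3% called among the 13619 tested genes, 13.2% higher and 26.1% lower, so the share of members is not above the background. Both comparisons use the same control libraries. The members' median log2 fold change was -0.15, against -0.13 over all genes tested.

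Klf13 measured 27.4 FPKM in control and 43.2 FPKM in Sp3 knockdown by the authors' deposited table, 1.58-fold higher in knockdown. Its log2 fold change was 0.66 ± 0.13 with q = 4.30e-06 by the deposited Cuffdiff test. After centring it was 0.79 with an adjusted p of 1.01e-08 from the authors' Cuffdiff statistic, and Klf13 then stood above 88.0% of tested genes, against 79.2% in control. Klf3 measured 7.46 and 5.07 FPKM by the authors' deposited table, a log2 fold change of -0.56 ± 0.17 with q = 0.00459 by the deposited Cuffdiff test. Relative to the median gene it was -0.42, adjusted p = 0.0324 from the authors' Cuffdiff statistic, so Klf3 stayed lower. Klf10 measured 20.9 and 16.0 FPKM by the authors' deposited table, a log2 fold change of -0.39 ± 0.11 with q = 0.00239 by the deposited Cuffdiff test. This call was lost by a small margin after centring, at -0.26 with an adjusted p of 0.052 from the authors' Cuffdiff statistic, and it held under upper-quartile scaling (-0.32, adjusted p = 0.0125 on the same statistic).

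Klf7 measured 11.97 and 14.4 FPKM by the authors' deposited table, a log2 fold change of 0.27 ± 0.15 with q = 0.143 by the deposited Cuffdiff test. Relative to the median gene it was higher, at 0.40 with an adjusted p of 0.0177 from the authors' Cuffdiff statistic, so Klf7 passed only after rescaling. After centring 3 of 10 members were called, Klf7 and Klf13 higher and Klf3 lower, against 37.8% of all genes (20.2% higher and 17.6% lower). Under upper-quartile scaling 4 of 10 were called, Klf10 lower in addition, against 38.4%. Klf12 measured 6.59 and 5.52 FPKM by the authors' deposited table (log2 -0.26 ± 0.12, q = 0.0779 by the deposited Cuffdiff test). Its centred value was -0.12, close to the median gene. Klf15 measured 5.81 and 4.57 FPKM (log2 -0.35 ± 0.18) and Klf4 1.02 and 0.706 FPKM (log2 -0.52 ± 0.40) by the authors' deposited table. At the low level of Klf4 the 95% interval ran from -1.30 to 0.25, so changes of more than 2-fold down could not be told from 0. Klf6 stood at 17.7 and 17.6 FPKM (log2 -0.0082 ± 0.10), Klf16 at 6.76 and 6.57 FPKM (log2 -0.042 ± 0.15) and Klf9 at 20.9 and 22.3 FPKM (log2 0.091 ± 0.10) by the authors' deposited table. The intervals of these 3 were narrow, from -0.21 to 0.20 for Klf6, from -0.33 to 0.24 for Klf16 and from -0.11 to 0.29 for Klf9.

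Set against each other, the knockdowns differed in 5 members, and in all 5 the level was higher in HDAC2 knockdown than in Sp3 knockdown. The control value cancels in this comparison, which takes the difference of the deposited log2 fold changes with the SE of both parts and a BH adjustment over 13277 genes. Of these genes 28.7% were called, 26.6% higher and 2.16% lower in HDAC2 knockdown. Klf12 measured 12.002 FPKM in HDAC2 and 5.52 FPKM in Sp3 knockdown by the authors' deposited table, a difference of 1.12 ± 0.27 (adjusted p = 2.99e-04 from the authors' Cuffdiff statistics). Klf16 stood at 12.8 and 6.57 FPKM by the authors' deposited table (0.96 ± 0.29, adjusted p = 0.00472 from the authors' Cuffdiff statistics). As deposited these were the widest gaps among the members, while after centring Klf7 had the widest (-0.79). Klf3 (0.84 ± 0.30, adjusted p = 0.0236), Klf10 (0.77 ± 0.26, adjusted p = 0.016) and Klf6 (0.75 ± 0.28, adjusted p = 0.0325) also passed on the authors' Cuffdiff statistics.

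Much of that difference is the gap between the 2 median genes, which the median gene of all those tested also shows (0.44, against 0.71 for the members). After centring 0 of 10 members passed, against 14.7% of all genes (7.86% higher and 6.87% lower), and 2 of 10, against 25.2% of all genes, had an unadjusted p under 0.05 from the authors' Cuffdiff statistics. These were Klf12, higher in HDAC2 knockdown (centred 0.67, adjusted p = 0.072), and Klf7, lower in it (centred -0.79, adjusted p = 0.0682, from the authors' Cuffdiff statistics). Under upper-quartile scaling 1 of 10, Klf12, passed against 14.8% of all genes (0.75, adjusted p = 0.0384 from the authors' Cuffdiff statistics). Klf13 was the other member besides Klf7 with a lower level in HDAC2 knockdown, 37.0 against 43.2 FPKM by the authors' deposited table, and its difference of -0.22 had a 95% interval from -0.93 to 0.48. Centred, it was -0.67, with an interval from -1.37 to 0.029 (adjusted p = 0.224 from the authors' Cuffdiff statistics). For Klf9 the difference was 0.43 with an interval from -0.087 to 0.96, for Klf15 0.16 from -0.51 to 0.82, and for Klf4 0.67 from -0.46 to 1.79. These intervals allow both no difference and one of 1.5-fold or more.

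**Figure D3:**
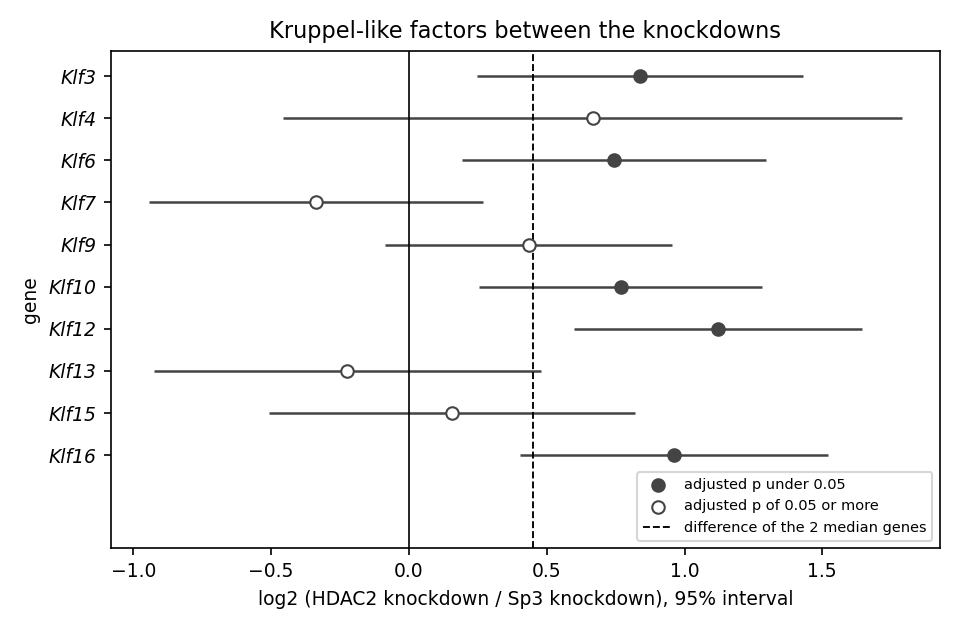
Log2 ratio of HDAC2 knockdown to Sp3 knockdown for each member with its 95% interval, filled where the adjusted p was under 0.05, and a dashed line at the difference of the 2 median genes. Klf3, Klf6, Klf10, Klf12 and Klf16 lie to the right of 0, and the intervals of all members but Klf7 and Klf12 include the dashed line.

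Of the other 7 Klf genes 3 were tested, Klf5, Klf8 and Klf11, and each stood above Klf4 in all groups. Klf5, an activator of proliferating cells, measured 4.75 FPKM in control, 4.41 in HDAC2 knockdown and 6.62 in Sp3 knockdown by the authors' deposited table. Its q was 0.828 and 0.0564 by the authors' Cuffdiff test, and after centring it passed in Sp3 knockdown (0.61, adjusted p = 0.00948 from the authors' Cuffdiff statistic). Klf8, a CtBP-binding repressor like Klf3 and Klf12, measured 2.98, 4.31 and 3.99 FPKM by the authors' deposited table and was called higher in Sp3 knockdown (0.42 ± 0.17, q = 0.0386 by the deposited Cuffdiff test). Within the CtBP-binding subgroup Sp3 knockdown thus gave Klf3 lower, Klf8 higher and Klf12 without a call. Klf11, a Sin3-binding relative of Klf10, measured 2.76, 4.29 and 2.06 FPKM by the authors' deposited table, with q = 0.0585 and 0.101 by the deposited Cuffdiff test. Klf1, Klf2 and Klf14 stayed under 1 FPKM in every group and were not tested, and Klf17 was listed at 0 in control and Sp3 knockdown. Among the 9 Sp genes, the closest relatives of the family, 5 were tested. By the authors' deposited table Sp3 and Sp8 were called higher in HDAC2 knockdown and Sp1 and Sp3 lower in Sp3 knockdown. Of all genes 28.2% and 39.3% were called. Sp3 is the gene that the Sp3 knockdown targets, so its lower call there follows from the design. The Sp1 call was lost after centring (-0.15, adjusted p = 0.276 from the authors' Cuffdiff statistic).

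Genes around the family were counted in lists chosen for their known links to it, by the authors' deposited table. Over all genes 24.6% were called higher and 3.6% lower in HDAC2 knockdown, and 13.2% and 26.1% in Sp3 knockdown. After centring these shares were 10.2% and 7.58%, and 20.2% and 17.6%. Of 22 tested corepressor genes of the CtBP and Sin3 complexes, 5 were higher and 3 lower in HDAC2 knockdown, and of 23 tested 2 were higher and 9 lower in Sp3 knockdown. Centred counts were 1 higher and 4 lower, and 3 higher and 4 lower, so the balance of calls in HDAC2 knockdown turned with the scaling. Hdac2 itself is 1 of the 3 lower genes, and Sap18, a Sin3 complex subunit, was lower in both (65.5 FPKM in control, 21.8 and 11.9 in HDAC2 and Sp3 knockdown) by the authors' deposited table. Zeb2, a repressor that binds CtBP, was higher in both, at 6.29 FPKM in control, 21.05 under HDAC2 and 10.1 under Sp3 knockdown by the authors' deposited table. The medians of this corepressor list were 0.44 and -0.32, and 0.12 and -0.18 after centring. Of 7 coactivator genes 3 were higher in HDAC2 and 1 in Sp3 knockdown, with 0 lower by the deposited Cuffdiff test, and centred counts were 2 and 3 higher with 0 lower. The acetyltransferase gene Kat2b went from 4.05 to 8.53 FPKM under HDAC2 knockdown by the authors' deposited table. Of 18 tested axon growth genes, 3 were higher and 1 lower in HDAC2 knockdown and 2 higher and 5 lower in Sp3 knockdown. After centring they were 1 and 1, and 2 and 4. Hormone receptor genes gave 2 higher and 1 lower of 8 in HDAC2 knockdown and 3 and 3 of 9 in Sp3 knockdown. Centred, both higher calls in HDAC2 knockdown were lost (0 higher and 1 lower), and Sp3 knockdown gave 3 and 2. The glucocorticoid receptor gene Nr3c1 fell in Sp3 knockdown, from 11.2 to 7.29 FPKM by the authors' deposited table. Of the hormone-induced genes, 8 were higher and 2 lower of 14 tested in HDAC2 knockdown, and 1 was higher and 9 lower of 13 tested in Sp3 knockdown, with medians of 0.56 and -0.51. After centring these became 1 higher and 4 lower, and 2 higher and 8 lower, so the balance of calls in HDAC2 knockdown rests on the scaling. The centred medians of the list were 0.25 and -0.38, of the same sign as before. Klf9 and Klf15, the hormone-responsive members, had no call in either knockdown by the deposited Cuffdiff test.

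Circadian clock genes gave 2 higher and 1 lower of 18 in HDAC2 knockdown and 2 and 5 of 18 in Sp3 knockdown, not above the 28.2% and 39.3% called among all genes. After centring the counts were 1 higher and 3 lower, which turned the balance, and 3 and 3. Of 19 immediate early genes, which neuronal activity induces, 13 were lower and 0 higher in each knockdown by the deposited Cuffdiff test, with medians of -1.17 and -0.81, and centred counts were 0 higher and 15 lower, and 1 and 13. Arc, a synaptic activity gene, went from 49.2 FPKM in control to 8.07 under HDAC2 and 23.5 under Sp3 knockdown by the authors' deposited table. Klf4, Klf6 and Klf10 are known to be induced early by growth factors or injury. Of these only Klf10 was called lower, in Sp3 knockdown, and Klf6 was called higher in HDAC2 knockdown. Both calls were lost after centring (adjusted p = 0.052 and 0.298 from the authors' Cuffdiff statistics). Of the TGF-beta pathway genes, 8 were higher and 1 lower of 17 in HDAC2 knockdown and 1 higher and 7 lower of 16 in Sp3 knockdown, and after centring 8 and 2, and 2 and 5. The TGF-beta target Id1 went from 2.21 to 11.1 FPKM under HDAC2 knockdown by the authors' deposited table. The receptor gene Tgfbr2 went from 1.67 to 4.83 FPKM in HDAC2 knockdown by the authors' deposited table. The lists share a few genes, and glial markers moved in the directions given above.

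**Figure D4:**
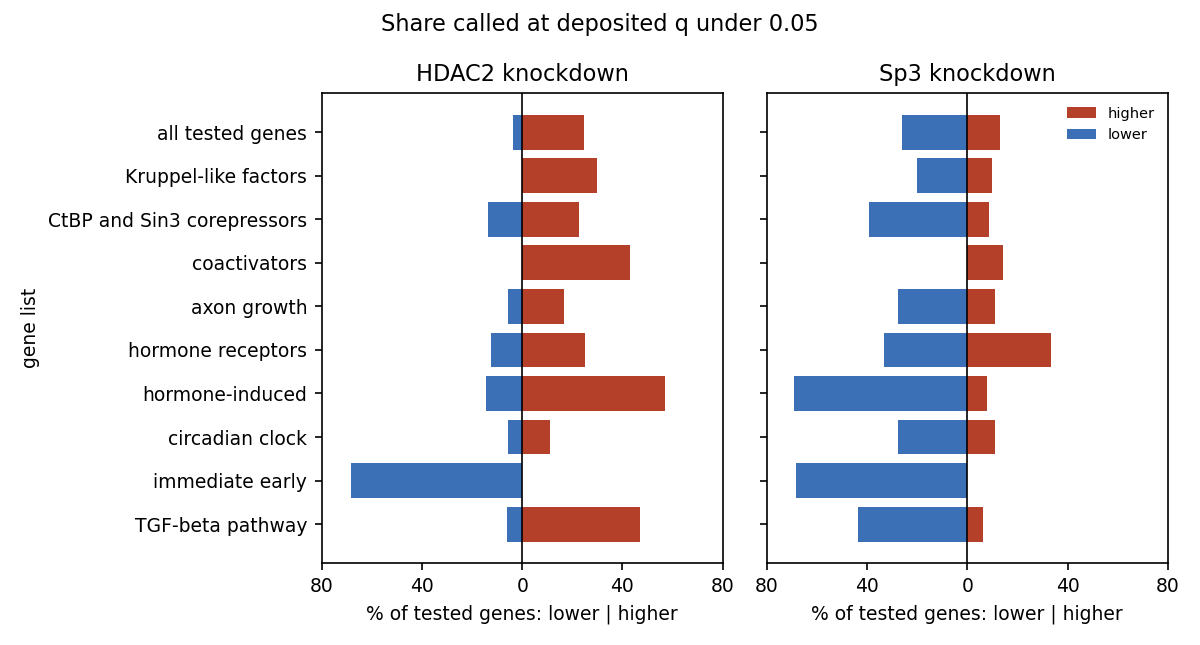
Share of tested genes called lower (left of 0) and higher (right of 0) at a deposited q under 0.05, for all genes, the 10 members and 8 related lists, in each knockdown. The bars of the Kruppel-like factors resemble those of all tested genes, while immediate early genes extend far to the left in both panels.

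Genes with the most similar pair of fold changes were found by distance in the plane of both deposited log2 fold changes. The search covered 11249 other genes of at least 1 FPKM in all groups and tested in both comparisons, without clone names and combined names. Klf13 was nearest to Smpd3 (distance 0.0018 log2 units, with 34.1 FPKM in control, 46.1 in HDAC2 and 53.9 in Sp3 knockdown by the authors' deposited table), then to Pcdhac1 and Pcdha4. It had 46 genes within 0.1 log2 units, the fewest of the 10 members. Klf16 was nearest to Kdm2b, Mtmr1 and Sparcl1, and Klf12 to Zbtb7b, Ogg1 and Zfp606. Klf6 was nearest to Hmga2, Prr3 and Nav2, and Klf3 to Mcee, Hist1h1c and Serf2. Between 46 and 276 genes lay within 0.1 log2 units of each member, so such neighbours are many. The patterns rest on 3 group values that share a control.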

How the data were processed

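RNA was sequenced from 6 libraries in 3 groups of 2. Reads were processed with TopHat, Bowtie and Cuffdiff on mouse build mm9, per the submitters' processing notes. The sources used here give no annotation, strand setting or read length. For each knockdown the authors deposited a table with 1 FPKM value per group, per the file headers. The deposited tables add for each gene its p-value, q-value, log2 fold change and the statistic behind them (a score whose sign is opposite to the fold). For 81 and 73 tested genes with a group listed at 0 the deposited log2 fold change is an extreme number, and these were left out of centred values. Depth is unknown: among genes under 0.3 FPKM the FPKM ratio to control found most often was 1.62 for Sp3 knockdown (48 genes) and 0.939 for HDAC2 knockdown (19 genes), which gives no read count.

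SE was computed as the log2 fold change over the sign-reversed statistic, and values over 5 were dropped. The deposited p-value equals a normal two-sided p of the statistic within 2.79e-06. Centring subtracted the median log2 fold change of genes of at least 1 FPKM, and upper-quartile scaling the log2 ratio of the 75th-percentile FPKM, each followed by a normal p and BH adjustment over the table. The knockdowns were compared by the difference of log2 fold changes, whose SE counts the control error in both parts. As the control value cancels in the difference, counting its error widens these intervals and raises these p-values. Code (Python 3.11.15, scipy 1.17.1) was tested on simulated data.

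The members and lists were chosen with earlier results of these data known. All members and other Klf genes are named, with the 3 called genes of smallest p of each list (of which the text gives a part). The 3 nearest genes are named for Klf3, Klf6, Klf12, Klf13 and Klf16. Coordinates of sequences are GRCm38, other than the mm9 of the tables, where Klf13 shares its locus entry with E030018B13Rik and Klf9 with Mir1192.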

Additional observations from a re-analysis of the deposited data

How the results depend on the processing

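No paired analysis was possible because the tables hold 1 value per group, and for the same reason no replicate could be left out. Under centring on the median gene and under upper-quartile scaling the count of members called in HDAC2 knockdown went from 3 to 0 and 0. The count between the knockdowns went from 5 to 0 and 1 (this scaling of the difference, and the centring of the gene lists, were chosen after seeing the data), and to 2 at an adjusted p under 0.01. Read against a t distribution with 2 degrees of freedom, 0 members and 0 genes passed in each of the 3 comparisons from Cuffdiff statistics. At an unadjusted p under 0.05 of that distribution 0, 1 and 0 members passed, beside 1268 of 13488, 2281 of 13546 and 1125 of 13286 genes. The targeted genes Hdac2 and Sp3 did not pass the adjusted threshold either, so 0 members under the t distribution cannot be read as no change. In Sp3 knockdown the count stayed within 1.5 times of 3 in the alternatives other than that one. Values without a call changed sign in HDAC2 knockdown for Klf3 (-0.033 centred, -0.022 upper quartile) and Klf4 (-0.17, -0.16). In Sp3 knockdown Klf6 (0.12, 0.062) and Klf16 (0.091, 0.028) did, and between the knockdowns Klf15 (-0.29, -0.22) and, under centring alone, Klf9 (-0.014). The cause was not tested. With a pseudocount of 0.1 or 1, 30 of 30 and 30 of 30 member values moved by less than their SE. The centred calls over all genes were 2403 in place of 3831 in HDAC2 knockdown, with 57.4% in place of 87.2% higher, 5119 in place of 5353 in Sp3 knockdown, with 53.4% in place of 33.6% higher, and 1955 in place of 3815 between the knockdowns, with 53.4% in place of 92.5% higher.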

Other observations

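Values of the members whose zinc finger coding sequences are most alike are given side by side. Klf6 and Klf7, 81.1% identical over the fingers, had log2 fold changes of 0.74 ± 0.26 and -0.069 ± 0.27 in HDAC2 knockdown and -0.0082 ± 0.10 and 0.27 ± 0.15 in Sp3 knockdown, from the authors' deposited tables. Klf13 and Klf16, 75.3% identical, had 0.43 ± 0.33 and 0.92 ± 0.25 in HDAC2 knockdown and 0.66 ± 0.13 and -0.042 ± 0.15 in Sp3 knockdown. Klf3 and Klf12, 78.2% identical, had 0.28 ± 0.25 and 0.86 ± 0.24 in HDAC2 knockdown and -0.56 ± 0.17 and -0.26 ± 0.12 in Sp3 knockdown, of the same sign as deposited, and centred values of -0.033 and 0.55 in HDAC2 knockdown. After centring 0 of these 6 genes were called in HDAC2 knockdown, and Klf3, Klf7 and Klf13 in Sp3 knockdown. The difference between the members of a pair was not tested.

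The deposited locus of the members ranged from 5340 bases for Klf4 to 279155 bases for Klf12, the longest. The locus entry of Klf13 is shared with E030018B13Rik, which measured 0.404 FPKM in control, 0.0748 FPKM under HDAC2 and 0.384 FPKM under Sp3 knockdown by the authors' deposited table.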
